A study of Mus musculus with 27 samples.

Results

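Dorsal skin of C3H mice given TDM10842 was compared, by RNA sequencing, with dorsal skin given the solvent of that compound alone. Members were chosen by their treatment label, and all 9 TDM and all 9 Vehicle libraries were used, which makes 18 of the 27 libraries of the study. The remaining 9 libraries, named Blank, came from skin that received nothing, and they entered the fit only to share the estimate of the spread. Vehicle and TDM skin each received 2 applications of 60 µL, at 0 and 24 h, so the groups differ by label in the compound and not in the handling. The submitters describe TDM10842 as an agonist of the thyroid hormone receptor. All mice were of 1 strain, no allele or transgene is named in the labels, and the labels give neither age nor the time between the last application and tissue collection. Nor is it stated that each library is its own mouse. The p-values therefore describe how these libraries scatter, and some of that scatter may be technical.

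Thyroid hormone receptors are nuclear receptors that sit on DNA, mostly as partners of retinoid X receptors, and switch between corepressors and coactivators when hormone binds. Skin carries the receptors, the deiodinases that activate or inactivate the hormone, and the transporters that let it into cells. The hair follicle cycles through growth, regression and rest. Growth starts from the hair germ and the dermal papilla, with hedgehog and Wnt signals, dividing matrix cells, new root sheaths and pigment, while the sebaceous gland beside it makes lipid.

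Count totals ran from 15412332 to 17357395 reads over the 18 libraries. Levels are given as CPM, the count scaled to library size by TMM, and changes as the log2 fold change of TDM against Vehicle with its standard error (SE). Each adjusted p is from edgeR's quasi-likelihood test with Benjamini-Hochberg adjustment over all genes tested, and a gene rose or fell where that value was under 0.05. The protocol text speaks of retinas, whereas the tissue label is dorsal skin. The summed level of 4 retina markers was at most 3.85 CPM in any library, against at least 3670 CPM for 5 keratinocyte markers. Vehicle replicates 7 and 8 stood apart: they held the 2 highest mean levels among Vehicle libraries of the lists for mitosis, replication, nucleotide synthesis, hedgehog signals, dermal papilla, inner root sheath and melanin. Vehicle replicate 3 held 168 CPM over 7 intestine markers, where the Vehicle median was 8.43 and the TDM maximum 7.47 CPM. Skeletal muscle also moved with the groups. The summed level of 8 muscle markers lay between 19000 and 65100 CPM in Vehicle (median 39500) and between 13100 and 33400 CPM in TDM (median 20100), and 7 of the 8 fell. The summed level of 6 fibroblast markers lay between 3290 and 30500 CPM in Vehicle (median 14400) and between 5620 and 48800 CPM in TDM (median 34000). These ranges overlapped widely, and 3 of the 6 rose. In bulk tissue, fewer cells of a type and less RNA per cell cannot be told apart.

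Of 54532 annotated genes, 17232 passed the filter on low counts and were tested. Of these, 2070 rose (12%) and 2020 fell (11.7%), which makes 4090 called genes (23.7%), and 6422 genes had an unadjusted p under 0.05. Most changes were small: 347 rose and 302 fell at least 2-fold, and 70 rose and 24 fell at least 4-fold. Called genes had a median absolute change of 0.536 on the log2 scale, against 0.213 over all tested genes. Among the 72 tested genes whose mean reached 1000 CPM, 28 fell and 2 rose. With the mean log2 level of the 8 muscle markers as a covariate, 123 genes were called higher and 109 lower, and 202 of the 4090 kept their call and sign. That score was 11.57 ± 0.6109 in Vehicle, 10.63 ± 0.497 in TDM and 11.21 ± 0.4141 in Blank (mean ± SD, n = 9 each), so it is tied to the groups compared.

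In 99 genes the ranges of the 9 Vehicle and the 9 TDM libraries did not overlap. TDM was higher throughout in 45 of them (0.261% of tested genes) and lower throughout in 54 (0.313%), and all 99 were called. Call and sign were kept by 30 of the 45 and 33 of the 54 with the muscle covariate. For 29 of the 45 and 43 of the 54, the median of the untreated Blank libraries lay within the Vehicle range, and for 8 of each it lay within the TDM range. Without Vehicle replicates 7 and 8 the ranges no longer overlapped in 707 genes with TDM higher and 222 with TDM lower. A range over fewer libraries can only shrink, so leaving libraries out can only raise these counts. The 2 libraries were also picked because they stood apart.

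**Figure D1:**
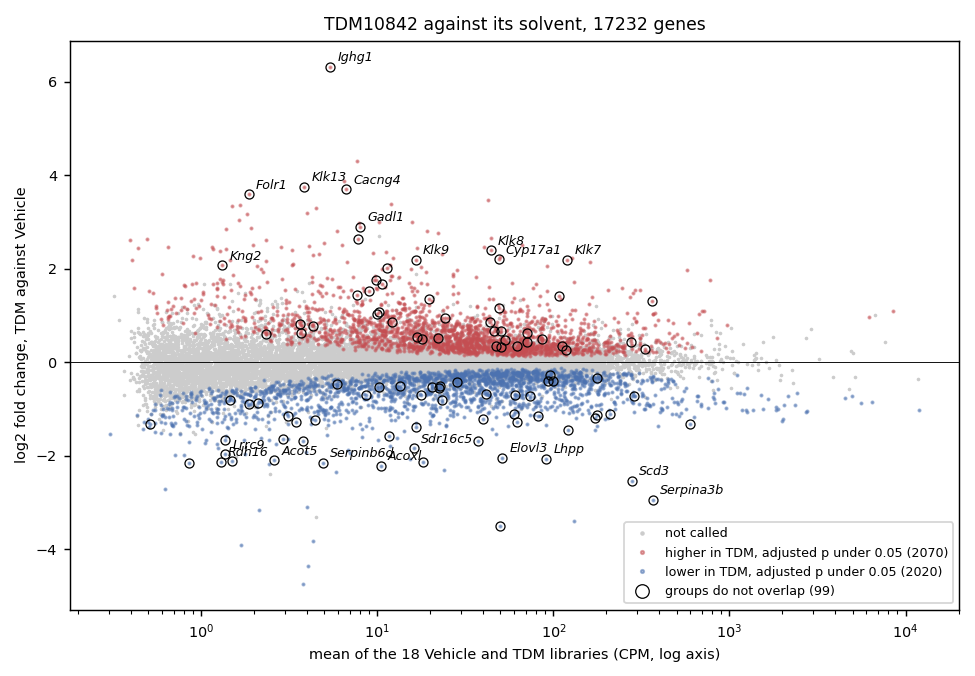
Each point is 1 of the 17232 tested genes, with its mean over the 18 libraries in CPM on a log axis and its log2 fold change of TDM against Vehicle; red genes rose, blue genes fell, and rings mark the 99 genes whose groups did not overlap. Ighg1, at 6.32, stands highest, and the ringed genes below -2 include Serpina3b and Scd3, which are also abundant.

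The genes that rose without overlap were led by an immunoglobulin gene, a calcium channel relative, a folate receptor and proteases of the kallikrein family. Ighg1 (ENSMUSG00000076614, chromosome 12, 113325240 to 113330523, GRCm38), an immunoglobulin heavy chain constant region, ranged from 0 to 0.323 CPM in Vehicle (median 0.0688) and from 3.60 to 20.7 CPM in TDM (median 7.78). Every TDM library was above every Vehicle and every Blank library, the highest of which held 0.376 CPM. The log2 fold change was 6.32 ± 0.53 SE (adjusted p = 1.34e-08). Ighg1 has close relatives in the heavy chain locus, so its counts are uncertain to the extent that reads were shared. Of 11 tested B and plasma cell genes, 3 rose (27.3%, against 12% over all tested genes) and none fell. The summed level of 5 B and plasma cell markers was 3.84 CPM at the median in Vehicle and 5.69 in TDM, and neither of the 2 that were tested passed. Ighm, the constant region of IgM, rose by 0.58 ± 0.19 (adjusted p = 0.0313) and did not pass when any of 5 libraries was left out, and Prdm1, a transcription factor of plasma cells and of sebaceous and epidermal cells, rose by 0.65 ± 0.17 (adjusted p = 0.00943).

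Cacng4 (chromosome 11, 107732357 to 107794557), a protein of the calcium channel gamma subunit family that serves glutamate receptors in brain, lay between 0.323 and 2.07 CPM in Vehicle (median 0.841) and between 5.24 and 23.6 CPM in TDM (median 10.6). The lowest TDM library held more than any Vehicle library, and the log2 fold change was 3.70 ± 0.34 (adjusted p = 6.97e-08). Its relative Cacng1, of skeletal muscle, fell (-1.17 ± 0.26, adjusted p = 0.00415). Folr1, a folate receptor on the cell surface, lay at 0 to 0.661 CPM in Vehicle (median 0.194) and at 0.972 to 8.15 CPM in TDM (median 3.0), a change of 3.59 ± 0.50 (adjusted p = 4.51e-05). Both genes stayed called with the muscle covariate.

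Gadl1, a decarboxylase related to glutamate decarboxylase, was at 1.08 to 3.19 CPM in Vehicle (median 1.82) and at 3.70 to 30.8 CPM in TDM (median 10.8; log2 fold change 2.90 ± 0.47, adjusted p = 0.000327). It did not pass with the muscle covariate (1.63, adjusted p = 0.162). Cyp17a1, an enzyme of androgen synthesis in gonad, lay between 10.1 and 23.9 CPM in Vehicle (median 19.1) and between 28.8 and 170 CPM in TDM (median 57.7). It rose by 2.21 ± 0.32 (adjusted p = 8.16e-05), and the Blank libraries, at 5.02 to 19.5 CPM, were on the side of Vehicle. Kng2, a kininogen from which kinin peptides are cut, was low throughout, at 0 to 0.792 CPM in Vehicle and 1.73 to 2.93 CPM in TDM (2.07 ± 0.31, adjusted p = 0.000125).

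Stat5a, a transcription factor that carries prolactin, growth hormone and cytokine signals, was among the most narrowly spread. It lay between 45.0 and 73.4 CPM in Vehicle (median 54.2), between 46.3 and 58.9 CPM in Blank (median 52.0) and between 113 and 239 CPM in TDM (median 139). Every TDM library exceeded every other library, and the log2 fold change was 1.43 ± 0.12 (adjusted p = 1.77e-08) and 1.42 with the muscle covariate. Of 11 tested genes of the prolactin, growth hormone and Stat5 list, Stat5a was the one that rose, and Prlr, the prolactin receptor, was the one that fell (-0.80 ± 0.15, adjusted p = 0.0013). Each makes 9.09% of the list, below the 12% higher and 11.7% lower over all tested genes. Cyp2f2, a cytochrome P450 best known from lung, rose by 1.32 ± 0.18 from a Vehicle median of 183 to a TDM median of 497 CPM (adjusted p = 2.32e-05) with no overlap. Of 27 tested cytochrome P450 genes, 2 rose (7.41%) and 4 fell (14.8%), beside 12% and 11.7% over all tested genes. The falling count was 11 without Vehicle replicate 7 and 7 without Vehicle replicate 8. The rising count was 1 without TDM replicate 1 or 5 or Vehicle replicate 1, 5 or 9.

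**Figure D2:**
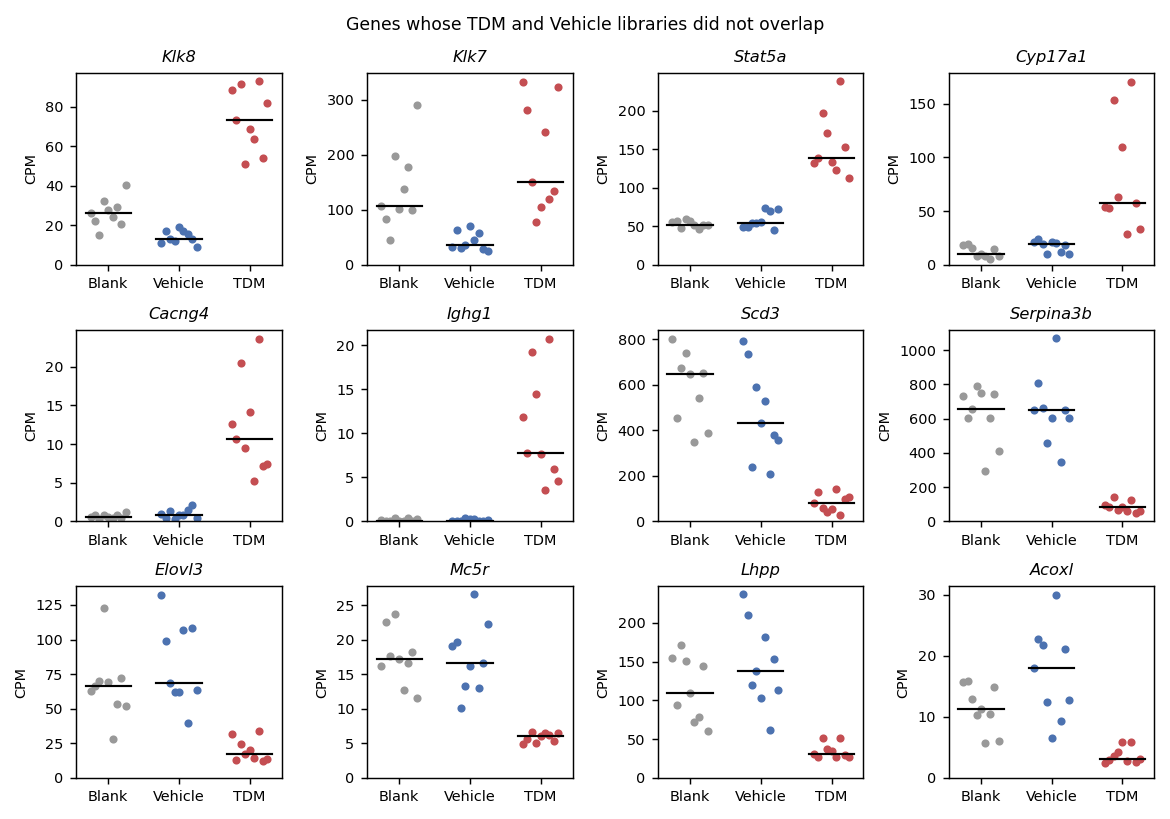
Levels of 12 genes whose TDM and Vehicle libraries did not overlap, in CPM on linear axes that start at 0; each point is 1 library, grey for Blank, blue for Vehicle and red for TDM, and the bar is the median of 9. In Stat5a the Blank and Vehicle libraries lie together below 80 CPM, while in Klk7 the Blank median, 106 CPM, lies between the Vehicle median of 36.3 and the TDM median of 151.

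Neighbouring kallikrein genes rose together against Vehicle. Kallikreins of the epidermis are secreted proteases that cut the contacts between dead surface cells and process other proteins there. The table holds 26 kallikrein genes on chromosome 7, of which 10 were tested: 7 rose and 1 fell, and 4 of the 7 did so without overlap between groups. In genomic order from Klk13 at 43712567 to the end of Klk5 at 43851181, the changes were 3.75 for Klk13, 0.32 for Klk11, 3.46 for Klk10, 2.19 for Klk9, 2.39 for Klk8, 2.19 for Klk7, 2.98 for Klk6 and 2.99 for Klk5. Klk11, which lies between Klk13 and Klk10, was the one of these 8 that did not pass (adjusted p = 0.235). Klk10, Klk6, Klk5 and Klk11 are named here because they complete the cluster, after their values were seen. Klk8, a protease found in epidermis and brain, had the smallest p of the genes that rose. It lay between 9.19 and 18.9 CPM in Vehicle (median 12.9) and between 50.8 and 92.7 CPM in TDM (median 73.1), a change of 2.39 ± 0.17 (adjusted p = 3.23e-10), and the untreated Blank libraries held 14.8 to 40.5 CPM. Klk9 went from a median of 5.70 to 27.6 CPM (2.19 ± 0.25, adjusted p = 2.43e-06). The mean log2 CPM of the list of epidermal kallikreins and inhibitors had medians of 3.629 in Vehicle, 5.046 in TDM and 4.758 in Blank. In TDM replicates 3, 4, 5 and 7 it lay between 4.251 and 4.723, just above the Vehicle maximum of 4.218. Klk13 lay between 1.51 and 2.72 CPM in these libraries, and reached 18.3 CPM in TDM replicate 9 and 7.49 CPM in Blank replicate 9.

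Klk7, a chymotrypsin-like protease that helps shed the horny layer, lay between 24.9 and 69.7 CPM in Vehicle (median 36.3) and between 77.8 and 333 CPM in TDM (median 151). Blank libraries ran from 44.7 to 290 CPM and so overlapped both groups. Under the muscle covariate Klk8 (2.20, adjusted p = 9.26e-08) and Klk9 (2.03, 0.00036) stayed called, while Klk7 (1.34, 0.0522), Klk13 (2.03, 0.117), Klk10 (1.33, 0.536), Klk6 (1.31, 0.306) and Klk5 (1.25, 0.327) did not pass. Further along the chromosome lies the Klk1b group, whose members are near copies of each other and were mostly at few reads, so their counts are uncertain. There Klk1b22 fell by 0.70 (adjusted p = 0.0483) and did not pass when any of 12 libraries was left out.

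**Figure D3:**
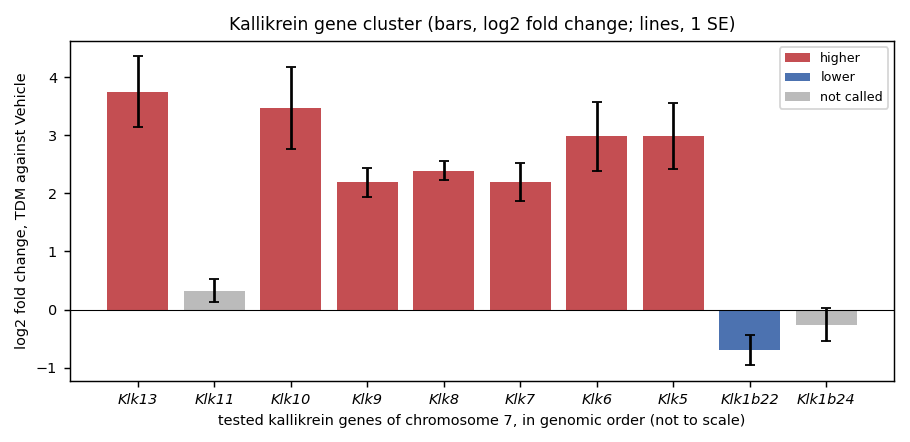
Log2 fold change of TDM against Vehicle (bars, from 0) with 1 SE (lines) for the 10 tested kallikrein genes of chromosome 7 in genomic order. The 7 red bars, from 2.19 to 3.75, rose, Klk11 and Klk1b24 in grey did not pass, and Klk1b22 fell.

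With clone-named genes left out, the genes that fell most without overlap included a protease inhibitor and enzymes of lipid metabolism. Serpina3b (chromosome 12, 104127996 to 104139545), a member of the family of alpha-1-antichymotrypsin, lay between 344 and 1068 CPM in Vehicle (median 648) and between 49.8 and 141 CPM in TDM (median 81.1). Blank libraries, at 295 to 791 CPM, lay with Vehicle, and the log2 fold change was -2.94 ± 0.23 (adjusted p = 3.06e-09). Of 10 tested genes of this inhibitor family, which form a row of related copies on the same chromosome, 2 fell and none rose. The falling share was 20%, against 11.7% over all tested genes. The falling count was 4 without Vehicle replicate 7 and 1 without any of 10 other libraries. Serpinb6d, of another inhibitor family with many close copies, fell by 2.15 on the log2 scale (adjusted p = 0.0007), from a median of 8.01 to 1.67 CPM.

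Scd3, a stearoyl-CoA desaturase that is typical of sebaceous gland in mouse skin, lay between 207 and 793 CPM in Vehicle (median 434) and between 25.8 and 144 CPM in TDM (median 80.1), a change of -2.53 ± 0.30 (adjusted p = 4.06e-06). Its neighbours did not share the fall. Scd1, the most abundant desaturase of skin, had medians of 6581 CPM in Vehicle and 8476 CPM in TDM and did not pass (0.44, adjusted p = 0.0988), and neither did Scd2 (0.51, adjusted p = 0.0984). Without Vehicle replicate 7 both passed as higher, at 0.57 and 0.78 (adjusted p = 0.0189 and 0.00226). The 3 genes are similar in sequence, so reads may have been shared, and Scd1 and Scd2 are named after their values were seen.

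Elovl3, an elongase of very long fatty acids, was at 39.3 to 132 CPM in Vehicle (median 68.6) and at 12.2 to 34.2 CPM in TDM (median 16.9), a change of -2.04 ± 0.26 (adjusted p = 1.17e-05). Hacd2, a dehydratase of the same elongation cycle, fell by 1.44 (adjusted p = 5.34e-06). Acoxl, a relative of peroxisomal acyl-CoA oxidase, fell from 6.58 to 30.0 CPM in Vehicle (median 18) to 2.45 to 5.85 CPM in TDM (median 3.10; -2.21 ± 0.27, adjusted p = 5.88e-06). A pair of thioesterases that free fatty acids from coenzyme A were also lower throughout, Acot5 (-2.10 ± 0.34, adjusted p = 0.000277) and Acot1 (-1.11 ± 0.14, adjusted p = 1.40e-05), which lie in 1 row of near copies on chromosome 12. Slc27a4, a fatty acid transporter and acyl-CoA synthetase, fell by 1.13 (adjusted p = 0.000209), and Acacb, the acetyl-CoA carboxylase that restrains fatty acid oxidation, by 1.11 (adjusted p = 2.75e-05). Lhpp, a phosphatase, went from a median of 138 to 30.4 CPM (-2.06 ± 0.23, adjusted p = 2.38e-06).

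Mc5r, the melanocortin receptor of sebaceous gland, was another gene without overlap. It lay between 10.1 and 26.7 CPM in Vehicle (median 16.6) and between 4.83 and 6.61 CPM in TDM (median 6.08), and it fell by 1.57 (SE 0.16, adjusted p = 2.11e-07). A pair of retinol dehydrogenases, Sdr16c5 (-1.84 ± 0.20, adjusted p = 1.22e-06) and Rdh16 (-2.13 ± 0.34, adjusted p = 0.000269), also fell without overlap. So did Lrrc9, a leucine-rich repeat protein that was low throughout (median 1.94 CPM in Vehicle and 0.521 in TDM, -1.97 ± 0.32, adjusted p = 0.000293). Scd3, Elovl3, Hacd2, Acoxl, Acot1, Acot5, Slc27a4, Acacb, Lhpp, Mc5r, Sdr16c5, Rdh16 and Lrrc9 all stayed called as lower with the muscle covariate.

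The promoters of Dio2 and of 4 genes without overlap are printed because the compound is described as a receptor agonist and the receptor binds DNA near the genes it regulates. They come from RefSeq on GRCm38.p6, run from 250 bases before to 50 after the start, are written 5′ to 3′ on the strand of the gene, and carry in capitals the half-site AGGTCA or the letters TATAA where present. Their positions are chr11:100859406-100859705 on the + strand for Stat5a, 1 of 2 starts in the table, chr7:43797327-43797626 on the + strand for Klk8, chr12:90738989-90739288 on the - strand for Dio2, chr12:104127746-104128045 on the + strand for Serpina3b and chr19:44203038-44203337 on the + strand for Scd3.
Stat5a: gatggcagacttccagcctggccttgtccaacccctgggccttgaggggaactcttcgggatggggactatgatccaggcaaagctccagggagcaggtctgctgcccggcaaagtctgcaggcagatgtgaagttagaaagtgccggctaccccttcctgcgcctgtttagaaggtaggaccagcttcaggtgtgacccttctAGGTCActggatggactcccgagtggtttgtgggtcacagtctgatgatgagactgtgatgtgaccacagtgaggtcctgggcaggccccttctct
Klk8: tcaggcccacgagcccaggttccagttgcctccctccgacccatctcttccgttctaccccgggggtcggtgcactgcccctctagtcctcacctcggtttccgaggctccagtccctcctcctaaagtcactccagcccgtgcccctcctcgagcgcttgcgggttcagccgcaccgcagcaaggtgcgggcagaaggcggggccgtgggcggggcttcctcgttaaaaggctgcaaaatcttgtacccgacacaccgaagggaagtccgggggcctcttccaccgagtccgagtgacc
Dio2: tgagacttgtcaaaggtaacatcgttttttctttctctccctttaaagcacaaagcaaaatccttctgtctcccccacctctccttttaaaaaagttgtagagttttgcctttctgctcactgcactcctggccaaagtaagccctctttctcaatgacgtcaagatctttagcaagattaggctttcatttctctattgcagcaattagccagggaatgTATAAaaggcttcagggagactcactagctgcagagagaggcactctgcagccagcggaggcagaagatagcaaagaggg
Serpina3b: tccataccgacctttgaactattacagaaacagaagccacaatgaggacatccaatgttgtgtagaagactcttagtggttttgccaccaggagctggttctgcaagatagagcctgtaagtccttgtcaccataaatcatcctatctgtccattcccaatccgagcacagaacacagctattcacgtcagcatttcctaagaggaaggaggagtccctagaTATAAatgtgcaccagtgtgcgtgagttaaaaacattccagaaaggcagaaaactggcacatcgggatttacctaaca
Scd3: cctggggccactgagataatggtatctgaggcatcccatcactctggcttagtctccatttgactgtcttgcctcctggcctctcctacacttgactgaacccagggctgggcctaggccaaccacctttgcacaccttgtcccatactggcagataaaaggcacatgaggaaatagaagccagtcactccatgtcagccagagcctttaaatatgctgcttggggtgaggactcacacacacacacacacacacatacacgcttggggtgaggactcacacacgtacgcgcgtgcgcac
The half-site begins 46 bases before the Stat5a start, and TATAA begins 28 bases before that of Serpina3b and 30 before that of Dio2, while the Klk8 and Scd3 windows hold neither. Over all 32851 promoters of the table, 16.3% hold the half-site on either strand, and 13% of the 15489 promoters of tested genes do, against 8 of 47 promoters (17.0%) of 37 matched genes that rose without overlap and 10 of 52 (19.2%) of 39 matched genes that fell without overlap. The pair of half-sites in a row, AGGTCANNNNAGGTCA, which contains the single half-site, was found in 5 of the 32851 and in none of these 99 promoters. The letters TATAA, searched on the strand of the gene, were held by 17.5% of all promoters, by 10.4% of those of tested genes, by 1 of the 47 and by 6 of the 52. These are counts of letters in a short window and not sites.

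Genes of thyroid hormone action changed in part. Dio2, the deiodinase that activates the hormone, lay between 1.36 and 4.95 CPM in Vehicle (median 2.32) and between 4.02 and 10.1 CPM in TDM (median 6.48). The highest Vehicle library, replicate 7, exceeded the lowest TDM library, and the change was 1.53 ± 0.23 (adjusted p = 8.73e-05; 1.36 with the muscle covariate, adjusted p = 0.00502). Of 9 tested deiodinase and transporter genes, 3 rose (33.3%, against 12% over all tested genes) and none fell. Slc7a5, an amino acid transporter that also carries the hormone, rose by 0.87 ± 0.24 (adjusted p = 0.0112). It did not pass with the muscle covariate (0.69, adjusted p = 0.237). Another carrier, Slc16a10, did not pass (0.09, adjusted p = 0.651). The other deiodinases were too low to test, with 17 and 27 reads of Dio1 and 56 and 101 reads of Dio3 over all Vehicle and all TDM libraries.

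Of 16 tested receptors and coregulators, 1 rose and 1 fell, which is below the shares over all tested genes. Tbl1x, a part of the corepressor complex, rose by 0.27 (adjusted p = 0.00798), but did not pass with the muscle covariate (0.09, adjusted p = 0.588). Rxrg, the retinoid X receptor of muscle and brain, fell by 0.66 (adjusted p = 0.0204), and its change was -0.07 with the muscle covariate. The receptors themselves did not pass. Thra had medians of 95.5 CPM in Vehicle and 90.2 in TDM (-0.05, adjusted p = 0.721), and Thrb 39.0 and 32.4 CPM (-0.26, adjusted p = 0.0678), passing without TDM replicate 7 or Vehicle replicate 3, 7 or 8. Nor did Rxra (0.00, adjusted p = 0.967) or the corepressor Ncor1 (0.06, adjusted p = 0.552). Of 20 tested response genes, 4 rose (20%) and 3 fell (15%), against 12% and 11.7% over all tested genes. The rising count was 2 without TDM replicate 1, 5 or 9 or Vehicle replicate 1, 2 or 3. With the muscle covariate none of the 20 was called in either direction. Thrsp, a regulator of fat synthesis, ranged from 7.07 to 345 CPM in Vehicle (median 61.5) and from 177 to 413 CPM in TDM (median 290), with much overlap. It rose by 1.55 ± 0.42 (adjusted p = 0.0109), and by 1.11 with the muscle covariate, where it did not pass (adjusted p = 0.212). Klf9 (0.00, adjusted p = 1.00) and Hr (0.05, adjusted p = 0.799), which respond to thyroid hormone in other tissues, did not pass.

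Genes of the growing follicle rose in most lists drawn up for it, although few did so without overlap. Of 17 tested hedgehog pathway genes, 10 rose and none fell (median log2 fold change 0.46, against 0.0134 over all tested genes). Gli3, a transcription factor of the pathway, rose by 0.41 ± 0.10 (adjusted p = 0.00517), and Hhip, a target that binds the ligand, by 1.25 ± 0.30 (adjusted p = 0.00618). Gli1, the classical target, lay between 9.18 and 161 CPM in Vehicle (median 24.6) and between 71.3 and 183 CPM in TDM (median 133). It rose by 1.42 ± 0.47 (adjusted p = 0.0289), a call that ended without Vehicle replicate 1, 2, 3 or 5. Shh, the ligand, had medians of 0.766 and 20.2 CPM and did not pass (1.89, adjusted p = 0.119), with the highest Vehicle library, replicate 8, at 42.8 CPM; without that library it passed (3.30, adjusted p = 0.00795). Gli2 and Smo also rose (1.36 and 0.46, adjusted p = 0.0013 and 0.00407).

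Of 25 tested dermal papilla genes, 14 rose and 2 fell (median 0.66). Corin, a protease of the papilla that modulates agouti pigment, rose by 1.84 ± 0.46 (adjusted p = 0.00659). Prom1, a membrane protein that marks papilla cells, rose by 1.43 ± 0.24 (adjusted p = 0.000401) without overlap, from 1.99 to 5.75 CPM in Vehicle to 5.91 to 19.6 CPM in TDM. Sox18 (1.24 ± 0.23, adjusted p = 0.00113), a transcription factor of papilla and vessel, and Wif1 (1.06 ± 0.22, adjusted p = 0.00219), a secreted Wnt inhibitor, rose as well. Of the 25, 3 were called higher with the muscle covariate.

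Among 15 tested Wnt ligands, 2 rose (13.3%, near the 12% over all tested genes) and 4 fell (26.7%, against 11.7%), with 5 rising without Vehicle replicate 8. Wnt5b, which is linked to signalling outside beta-catenin, rose by 0.99 ± 0.16 (adjusted p = 0.000277), from 5.84 to 12.8 CPM in Vehicle (median 7.30) to 9.55 to 20.5 CPM in TDM (median 15.5). Wnt3 (-0.72, adjusted p = 0.0108), Wnt3a (-0.84, adjusted p = 0.005) and Wnt9a (-0.52, adjusted p = 0.00328) fell. Of 16 R-spondins and secreted inhibitors, 5 rose (31.2%) and 1 fell (6.25%), beside 12% and 11.7% over all tested genes. Rspo3 (1.28 ± 0.32, adjusted p = 0.00686) and Rspo2 (1.67 ± 0.43, adjusted p = 0.00764), which strengthen Wnt signals, rose, and Frzb, a secreted inhibitor, fell by 0.85 (adjusted p = 0.00954), although its change was 0.03 with the muscle covariate. Of 26 receptors, Tcf factors and feedback genes, 7 rose (26.9%, against 12% over all tested genes) and none fell. They included the receptors Fzd2 (0.67 ± 0.13, adjusted p = 0.00117) and Fzd1 (0.55 ± 0.11, adjusted p = 0.00232) and Ctnnb1, which encodes beta-catenin (0.51 ± 0.11, adjusted p = 0.00309). Lef1, its partner in the hair matrix, did not pass (0.79, adjusted p = 0.0824), but did without Vehicle replicate 8 (1.17, adjusted p = 0.00407). With the muscle covariate 1 Wnt ligand, Wnt5b (0.69, adjusted p = 0.0476), was called, and no gene of the R-spondin and receptor lists. Rspo3 (1.40, adjusted p = 0.0571), Rspo2 (1.86, adjusted p = 0.0655), Fzd2 (0.51, adjusted p = 0.0917), Fzd1 (0.22, adjusted p = 0.259) and Ctnnb1 (0.46, adjusted p = 0.0929) did not pass there.

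Keratins of the inner root sheath, the first sheath that a new follicle builds, were higher but very uneven. Of 8 tested genes of this list, 7 rose (87.5%, against 12% over all tested genes) and none fell (median 2.26). Krt71 lay between 0 and 1.32 CPM in Vehicle (median 0.17) and between 0.183 and 8.17 CPM in TDM (median 2.82), a change of 3.04 ± 0.67 (adjusted p = 0.00352). Krt73 reached 17.5 CPM in Vehicle replicate 7 and at most 0.335 CPM in the other 8 Vehicle libraries, while TDM libraries ran from 1.41 to 85.8 CPM. Its change was 3.39 ± 0.89 (adjusted p = 0.00874), with 7.06 without Vehicle replicate 7 and 2.73 without TDM replicate 5. Krt25 behaved likewise in these libraries, at 3.19, 5.95 and 2.46. With the muscle covariate none of the 8 list genes was called. The changes were then 2.88 for Krt71, 3.17 for Krt73 and 2.72 for Krt25 (adjusted p = 0.0571, 0.0621 and 0.112). Among 18 regulators of matrix, cortex and sheath, 7 rose (38.9%, against 12% over all tested genes) and none fell. The rising count was 4 without TDM replicate 1 or 5 or Vehicle replicate 1, 4, 5 or 9, and 11 without Vehicle replicate 8. Those that rose included Foxe1 (1.93 ± 0.57, adjusted p = 0.0171; 2.67 without Vehicle replicate 7), Msx1 (0.90 ± 0.26, adjusted p = 0.0146) and Trps1 (0.40 ± 0.12, adjusted p = 0.0182). None of the 18 was called with the muscle covariate. The changes were then 1.77 for Foxe1, 1.04 for Msx1 and 0.20 for Trps1 (adjusted p = 0.171, 0.105 and 0.488). In bulge and hair germ genes 2 of 20 rose (10%) and 3 fell (15%), near the 12% and 11.7% over all tested genes. The rising count was 5 without Vehicle replicate 7 or 8, and the falling count was 1 without Vehicle replicate 3 or 6. Ltbp1, which binds latent TGF-beta, rose without overlap (0.49 ± 0.09, adjusted p = 0.00136), from 46.7 to 87.2 CPM in Vehicle to 88.0 to 118 CPM in TDM. Its Blank libraries held 81.1 to 113 CPM, and with the muscle covariate it did not pass (0.38, adjusted p = 0.104). Fgf18, a signal of the resting follicle, did not pass (-1.16, adjusted p = 0.0536), with 5 of 18 fits without 1 library calling it lower. Fgf5, which ends growth, was too low to test, at 83 reads over all Vehicle and 60 over all TDM libraries.

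Of 21 tested Notch genes, 5 rose (23.8%) and 2 fell (9.52%), beside 12% and 11.7% over all tested genes. The rising count ran from 4 to 7 with 1 library left out and was 1 with the muscle covariate. The target genes Heyl (1.23 ± 0.26, adjusted p = 0.00293) and Hey2 (0.90 ± 0.23, adjusted p = 0.00855) rose, while the ligand Jag1 did not pass (-0.07, adjusted p = 0.719). With the muscle covariate Heyl stayed called (1.23, adjusted p = 0.0477), and Hey2 did not pass (0.95, adjusted p = 0.101). Of the growth factor genes Igf1 (0.52, adjusted p = 0.102), Vegfa (-0.24, adjusted p = 0.105) and Egfr (0.15, adjusted p = 0.233), none passed; Igf1 passed without Vehicle replicate 7 and Vegfa without TDM replicate 7.

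Genes of dividing cells rose together by small amounts. Of 27 tested genes of origin licensing and the replication fork, 21 rose and none fell (median 0.76, from 0.195 to 1.33). Cdc45, a part of the replicative helicase, had medians of 7.88 CPM in Vehicle and 16.3 CPM in TDM (0.83 ± 0.19, adjusted p = 0.00502), and Lig1, the ligase that seals new strands, rose by 0.92 ± 0.22 (adjusted p = 0.00604). Pcna, the sliding clamp, rose by 0.75 ± 0.17 (adjusted p = 0.00431), and Mcm7 by 0.76 ± 0.16 (adjusted p = 0.00243). Of 14 nucleotide synthesis genes 10 rose, including both subunits of ribonucleotide reductase, Rrm1 (0.86 ± 0.19, adjusted p = 0.0034) and Rrm2 (1.17 ± 0.23, adjusted p = 0.00192). Of 26 mitosis genes 23 rose (median 0.87), among them Prc1, which bundles the central spindle (0.77 ± 0.17, adjusted p = 0.00351), Top2a (0.93 ± 0.23, adjusted p = 0.00627), Foxm1 (0.97 ± 0.24, adjusted p = 0.00628) and Aurkb (1.0 ± 0.24, adjusted p = 0.00636). The levels of Top2a ran from 54.7 to 177 CPM in Vehicle (median 60.6) and from 117 to 226 CPM in TDM (median 171), so the highest Vehicle library lay inside the TDM range.

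Of 20 genes for cyclins of the first phase and cell cycle inhibitors, 10 rose and none fell, including Ccne1 (0.87 ± 0.22, adjusted p = 0.00705), E2f1 (0.73 ± 0.19, adjusted p = 0.00747) and Cdk2 (0.49 ± 0.13, adjusted p = 0.00785). Mki67, a common label of cycling cells, had medians of 95.6 and 213 CPM and did not pass (0.61, adjusted p = 0.0744), with 338 CPM in its highest Vehicle library; it passed without Vehicle replicate 7 or 8. Replication-dependent histone genes went the other way: of 15 tested, 5 fell (33.3%, against 11.7% over all tested genes) and none rose (median -0.47). Those that fell included Hist1h4h (-0.90, adjusted p = 0.00802), Hist1h3d (-1.10, adjusted p = 0.00875), Hist1h2be (-0.66, adjusted p = 0.0049) and Hist2h3c2 (-0.66, adjusted p = 0.0211). With the muscle covariate none of the 15 was called. The changes were then -0.28 for Hist1h4h, -0.42 for Hist1h3d, -0.20 for Hist1h2be and -0.23 for Hist2h3c2. Histone transcripts of this kind lack a poly(A) tail and were few, and some are near copies. Of 24 ribosome biogenesis genes, 8 rose and none fell, with 14 without Vehicle replicate 8, 3 without Vehicle replicate 1, and 4 or 5 without TDM replicate 1, 5, 7 or 8 or Vehicle replicate 2, 3, 4, 5 or 9. They included the nucleolar proteins Fbl (0.51 ± 0.15, adjusted p = 0.0176), Nhp2 (0.50 ± 0.14, adjusted p = 0.0123), Bop1 (0.34 ± 0.10, adjusted p = 0.0159) and Ncl (0.36 ± 0.11, adjusted p = 0.0203). Of 36 cytosolic ribosomal protein genes none was called (median 0.0158).

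Without Vehicle replicates 7 and 8, 26 of 27 replication, 13 of 14 nucleotide, 26 of 26 mitosis and 12 of 17 hedgehog genes rose; these 2 libraries were the highest of Vehicle for those lists, so leaving them out raises the counts by construction. With the muscle covariate 1 of the 27 replication genes, Mcm7 (0.80, adjusted p = 0.0366), was called higher, and none of the nucleotide, mitosis or hedgehog genes. The fitted changes of Mcm7, Cdc45, Prc1 and Aurkb were then 0.80, 0.73, 0.71 and 0.92, with wider errors.

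**Figure D4:**
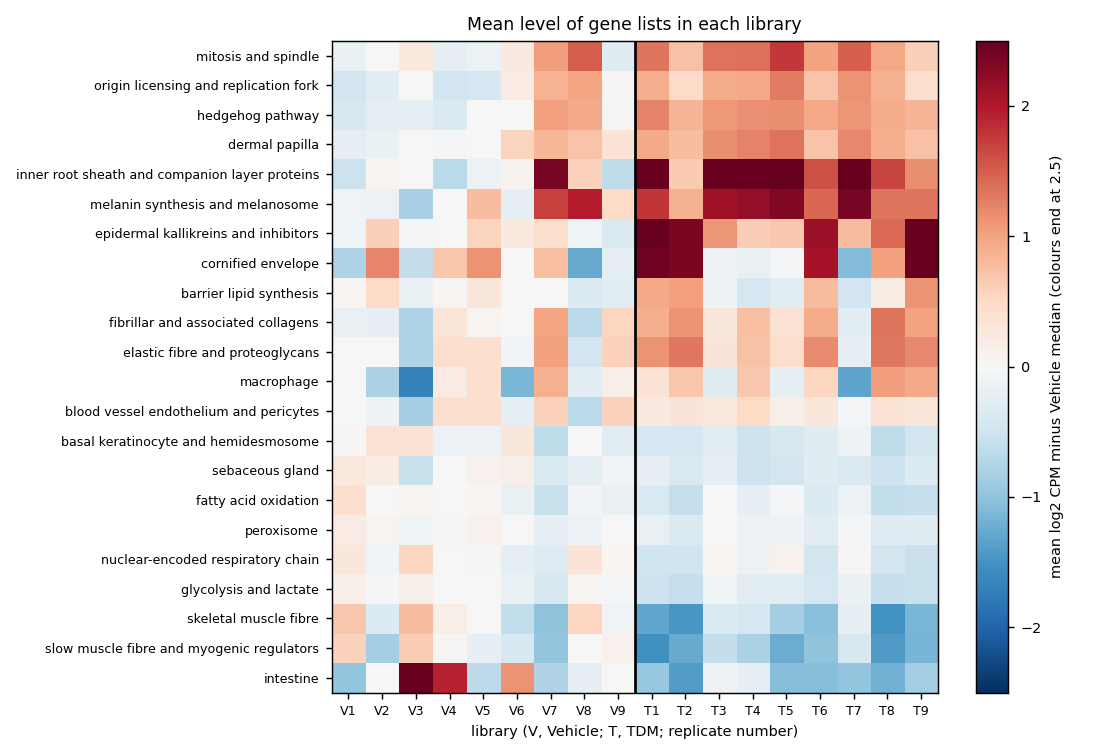
Mean log2 CPM of each gene list in each of the 18 libraries, as the difference from the Vehicle median; V marks Vehicle and T marks TDM libraries, the line separates the groups, and colours end at 2.5. Vehicle replicates 7 and 8 are red in the mitosis, hedgehog, root sheath and melanin lists like most TDM libraries, Vehicle replicate 3 stands out for intestine, and the cornified envelope list is uneven among TDM libraries.

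Pigment genes rose with the follicle genes. Of 17 tested genes of melanin synthesis and melanosomes, 10 rose and none fell (median 1.14), but the count was 4 without Vehicle replicate 3, 5 without Vehicle replicate 1 or 2, at most 12 with any 1 library left out, and 0 with the muscle covariate. Tyrp1, an enzyme of brown-black pigment synthesis, lay between 5.46 and 98.3 CPM in Vehicle (median 17.8) and between 31.5 and 147 CPM in TDM (median 82.5), a change of 1.36 ± 0.40 (adjusted p = 0.0152). The highest Vehicle library stood above the TDM median. Slc24a5, an ion exchanger of the melanosome, rose by 1.78 ± 0.52 (adjusted p = 0.0162; 2.54 without Vehicle replicate 8), Mlana by 1.62 ± 0.49 (adjusted p = 0.019; 2.31 without that library) and the transporter Slc45a2 by 1.64 ± 0.50 (adjusted p = 0.0204).

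In the epidermis, late differentiation genes were higher in part and basal genes lower. Of 31 tested cornified envelope genes, 11 rose and none fell (median 1.03), with 7 without TDM replicate 1, 2 or 9 or Vehicle replicate 1 or 3. Ivl, an early precursor of the envelope, lay between 4.08 and 20.7 CPM in Vehicle (median 11.4) and between 16.4 and 72.3 CPM in TDM (median 36.1), a change of 1.89 ± 0.37 (adjusted p = 0.0017). Rptn ran from 0.0669 to 1.95 CPM in Vehicle and from 0.232 to 36.2 CPM in TDM (3.88 ± 0.85, adjusted p = 0.00347), and 6 of 9 TDM libraries were above the Vehicle median. Sprr4 (4.29 ± 0.99, adjusted p = 0.0047) and Sprr1a (2.46 ± 0.58, adjusted p = 0.00502), small proline-rich proteins with close relatives in 1 cluster, were as uneven. Flg, which bundles keratin and feeds the moisture of the surface, rose by 2.05 ± 0.58 (adjusted p = 0.0129). Lor, the most abundant envelope protein, rose by 1.97 ± 0.67 (adjusted p = 0.0336), from a median of 139 to 592 CPM, and did not pass when any of 8 libraries was left out. The Blank medians of Ivl, Rptn and Sprr4, at 34.7, 6.69 and 10.1 CPM, were close to or above the TDM medians of 36.1, 5.84 and 6.47.

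The suprabasal keratin Krt10 did not pass (0.90, adjusted p = 0.0918). Of 23 suprabasal genes, 4 rose (17.4%) and 1 fell (4.35%), beside 12% and 11.7% over all tested genes. Those that rose included Krt77 (1.76 ± 0.46, adjusted p = 0.00919) and the junction proteins Dsc1 (2.76 ± 0.69, adjusted p = 0.00696) and Cdsn (2.65 ± 0.70, adjusted p = 0.00916). These genes were uneven among TDM libraries: Cdsn lay between 2.93 and 6.07 CPM in TDM replicates 3, 4, 5 and 7, below its Vehicle median of 10.1 CPM, and between 37.1 and 213 CPM in the other 5. Dsc1 and Krt77 were lowest in the same 4 TDM libraries. The fitted changes with the muscle covariate were 0.40 for Cdsn, 0.46 for Dsc1 and 0.15 for Krt77 (adjusted p = 0.900, 0.866 and 0.935). Of 29 barrier lipid genes, 9 rose (31%, against 12% over all tested genes) and 3 fell (10.3%, near the 11.7% over all tested genes). Among them were Lipn, a lipase of the granular layer (3.35 ± 0.81, adjusted p = 0.00598), Ephx3 (0.79 ± 0.17, adjusted p = 0.0032) and, as lower, Cyp4f39 (-0.85 ± 0.22, adjusted p = 0.00838). The rising count ran from 5 to 16 in the fits with 1 library left out, with 16 without TDM replicate 7 and 5 without TDM replicate 9 or Vehicle replicate 1, 3 or 8. Lipn lay between 0 and 0.463 CPM in TDM replicates 3, 4, 5 and 7, inside its Vehicle range of 0 to 0.737 CPM. Its Blank libraries held 0.305 to 7.85 CPM and its highest TDM library 8.14 CPM. Of 18 tested claudin and tight junction genes, 3 rose (16.7%) and 1 fell (5.56%), beside 12% and 11.7% over all tested genes. Cldn23, a claudin of tight junctions, was 1 of the 3 and rose by 3.30 ± 0.71 (adjusted p = 0.00312). In TDM replicates 3, 4, 5 and 7 it lay between 0.75 and 0.93 CPM, inside the Vehicle range of 0.118 to 1.75 CPM, and with the muscle covariate it did not pass (1.31, adjusted p = 0.525). With the muscle covariate no cornified envelope or barrier lipid gene was called higher, and the fitted changes turned to -0.47 for Lor and -0.51 for Krt10.

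Of 18 tested basal keratinocyte and hemidesmosome genes, 10 fell and none rose (median -0.45). Krt14, the main basal keratin, lay between 1469 and 4090 CPM in Vehicle (median 2361) and between 1231 and 2213 CPM in TDM (median 1530), a change of -0.71 ± 0.18 (adjusted p = 0.00705). All 9 TDM libraries were below the Vehicle median. The anchoring proteins Col17a1 (-0.72, adjusted p = 0.00527), Lamb3 (-0.76, adjusted p = 0.005) and Dst (-0.58, adjusted p = 0.00563) fell as well. Krt15, a keratin of basal and bulge cells, fell by 0.67 (adjusted p = 0.0238), a call that ended without Vehicle replicate 3 or 6. No gene of the basal list was called with the muscle covariate.

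Dermal matrix genes were higher. Of 28 tested collagens and their enzymes, 15 rose and 1 fell (median 0.72), with 9 rising without TDM replicate 8. Col11a1, a fibrillar collagen, lay between 0.269 and 15.3 CPM in Vehicle (median 2.62) and between 13.7 and 25 CPM in TDM (median 17.7), a change of 2.35 ± 0.41 (adjusted p = 0.000591; 3.08 without Vehicle replicate 7). Col6a1 and Col6a2, neighbours on chromosome 10 whose products assemble together, rose by 1.09 ± 0.25 and 1.04 ± 0.25 (adjusted p = 0.00431 and 0.0059). Of 20 basement membrane genes, 9 rose and 1 fell. Lamc3, a laminin chain, lay between 10.3 and 44.8 CPM in Vehicle and between 55.5 and 88.4 CPM in TDM with no overlap (1.17 ± 0.21, adjusted p = 0.000983), and Lama2 rose by 1.11 ± 0.24 (adjusted p = 0.00281).

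Of 30 elastic fibre and proteoglycan genes, 12 rose and 1 fell, among them Mfap2 (1.09 ± 0.21, adjusted p = 0.00117) and the fibrillin Fbn2 (1.84 ± 0.40, adjusted p = 0.00318; 2.43 without Vehicle replicate 7). Of 26 matrix metalloproteinases, related proteases and inhibitors, 10 rose and 1 fell, with 16 rising without Vehicle replicate 7. Mmp14, a protease on the cell surface, lay between 74.3 and 275 CPM in Vehicle (median 153) and between 150 and 722 CPM in TDM (median 513; 1.54 ± 0.26, adjusted p = 0.000441). Adamts18 (2.81 ± 0.55, adjusted p = 0.00156; 3.88 without Vehicle replicate 7) and Adamts4 (1.99 ± 0.44, adjusted p = 0.004) rose too. Of 20 TGF-beta and activin genes 4 rose (20%) and 2 fell (10%), beside 12% and 11.7% over all tested genes. The rising count was 8 without Vehicle replicate 7 and 2 without TDM replicate 5 or Vehicle replicate 1 or 3. The falling count was 1 without TDM replicate 8 or 9. Ctgf, a matrix protein induced by TGF-beta, was 1 of the 2 and fell by 0.96 (adjusted p = 0.0204). With the muscle covariate 1, 1, 0 and 1 genes of the collagen, basement membrane, elastic fibre and protease lists were called higher, Col11a1 (1.74, adjusted p = 0.012), Lamc3 (1.21, adjusted p = 0.0163) and Adamts18 (2.31, adjusted p = 0.034). The summed fibroblast markers moved in the same direction, and their part in these counts was not tested.

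Lipid genes, those without overlap included, fell more often than they rose in the lists for sebaceous gland (3 of 25 rose, 9 fell), desaturation and elongation (4 of 18 rose, 7 fell), fatty acid oxidation (2 of 26 rose, 10 fell) and peroxisome (1 of 34 rose, 11 fell). The falling shares were 36%, 38.9%, 38.5% and 32.4%, against 11.7% over all tested genes. The rising shares were 12%, 22.2%, 7.69% and 2.94%, against 12%. Acox3, a peroxisomal acyl-CoA oxidase, lay between 128 and 317 CPM in Vehicle (median 213) and between 92.1 and 149 CPM in TDM (median 119), a change of -0.92 ± 0.16 (adjusted p = 0.0007). Crat, which moves acyl groups between coenzyme A and carnitine, fell by 0.78 (adjusted p = 0.000105), Phyh, an enzyme of phytanic acid breakdown, by 0.62 (adjusted p = 0.000928) and Acadm, a mitochondrial acyl-CoA dehydrogenase, by 0.67 (adjusted p = 0.000901). Pex11a, which divides peroxisomes, fell without overlap (-0.67 ± 0.12, adjusted p = 0.0007). Fabp5, a fatty acid binding protein of epidermis and sebaceous gland, fell by 1.21 (adjusted p = 0.000173).

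Other lipid genes rose. Cpt1a, which lets fatty acids into mitochondria and is a thyroid hormone target in liver, rose by 0.55 ± 0.11 (adjusted p = 0.00209), from 65.0 to 113 CPM in Vehicle to 107 to 161 CPM in TDM. Agpat2, an enzyme of triglyceride and phospholipid synthesis, rose by 1.03 ± 0.19 (adjusted p = 0.000886), and the desaturase Fads2 by 0.67 ± 0.14 (adjusted p = 0.00283). Of 24 cholesterol synthesis genes, 5 rose (20.8%) and 4 fell (16.7%), beside 12% and 11.7% over all tested genes. The rising count was 3 without Vehicle replicate 1 or 3, and the falling count was 8 without TDM replicate 7. Dhcr7 (0.77 ± 0.19, adjusted p = 0.00737) and Sc5d (0.39 ± 0.11, adjusted p = 0.0103) rose, and Hsd17b7 (-1.55 ± 0.27, adjusted p = 0.0007) and Tm7sf2 (-0.58 ± 0.14, adjusted p = 0.00527), which act earlier in the pathway, fell. Of 24 adipocyte genes 1 rose and 2 fell, below the shares over all tested genes, and the summed level of 5 adipocyte markers was 2770 CPM at the Vehicle median and 2660 at the TDM median. Under the covariate 5 sebaceous and 4 desaturation genes were still called lower, against 1 of fatty acid oxidation and 2 of peroxisome; the fatty acid oxidation count was 5 without TDM replicate 8 and 6 without TDM replicate 1, 2 or 9.

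In steroid metabolism, Cyp17a1 was the 1 of 17 tested genes that rose (5.88%, against 12% over all tested genes). Of the 17, 6 fell (35.3%, against 11.7%). They included Hsd17b2 (-1.61 ± 0.30, adjusted p = 0.00101), which inactivates estradiol and testosterone, and Srd5a1 (-0.67 ± 0.15, adjusted p = 0.00452), which makes dihydrotestosterone. Hsd17b2 lay between 3.38 and 23.7 CPM in Vehicle (median 10.4) and between 2.37 and 6.67 CPM in TDM (median 3.61). Of 27 retinoid genes, 4 rose (14.8%) and 7 fell (25.9%), beside 12% and 11.7% over all tested genes. The rising count was 2 without TDM replicate 1 or Vehicle replicate 1, 3 or 8. Besides Rdh16 and Sdr16c5, the dehydrogenase Rdh1 fell (-1.17 ± 0.25, adjusted p = 0.00307), while the binding protein Crabp2 (1.11 ± 0.26, adjusted p = 0.00471) and the receptor Rara (0.50 ± 0.11, adjusted p = 0.0034) rose, and Cyp26b1, which degrades retinoic acid, did not pass (0.40, adjusted p = 0.432).

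Muscle genes fell almost throughout. Of 29 tested genes of skeletal muscle fibres, 28 fell and none rose (median -0.997), and of 18 slow fibre and myogenic genes 10 fell (median -1.06). Myod1, a master regulator of muscle, lay between 4.76 and 24.4 CPM in Vehicle (median 7.70) and between 1.5 and 5.81 CPM in TDM (median 2.78), a change of -1.93 ± 0.37 (adjusted p = 0.00129). Myog (-1.55, adjusted p = 0.00743) and the satellite cell factor Pax7 (-1.17, adjusted p = 0.00838) fell like the structural genes Myh2 (-1.36, adjusted p = 0.00238), Ttn (-1.21, adjusted p = 0.00443) and Tpm2 (-1.06, adjusted p = 0.00294). The covariate contains muscle genes, so it takes these changes away by construction.

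Genes of energy metabolism fell beside them. Of 40 nuclear-encoded respiratory chain genes, 26 fell and none rose (median -0.33), for example Ndufb9 (-0.48, adjusted p = 0.0148), but the count was 8 without TDM replicate 1, 11 without TDM replicate 2 or 8, 12 without TDM replicate 6 or 9 and 15 without Vehicle replicate 3. Of 20 glycolysis genes, 12 fell and 1 rose, and of 21 citrate cycle genes, 10 fell and 1 rose, with 5 without TDM replicate 1, 2 or 8 and 6 without TDM replicate 6 or 9 or Vehicle replicate 1, 3 or 4. Ldha, which makes lactate, lay between 1263 and 2774 CPM in Vehicle (median 1743) and between 875 and 1553 CPM in TDM (median 973; -0.69 ± 0.16, adjusted p = 0.00445). Tpi1 (-0.74, adjusted p = 0.00535), Pdk1 (-0.55, adjusted p = 8.73e-05) and the citrate synthase Cs (-0.39, adjusted p = 0.006) fell, and Pgam1, the phosphoglycerate mutase of tissues other than muscle, was the glycolysis gene that rose (0.52 ± 0.12, adjusted p = 0.00459). With the muscle covariate the fitted changes were -0.04 for Tpi1, -0.12 for Ldha, -0.04 for Ndufb9 and -0.38 for Pdk1, of which Pdk1 was called (adjusted p = 0.0242).

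**Figure D5:**
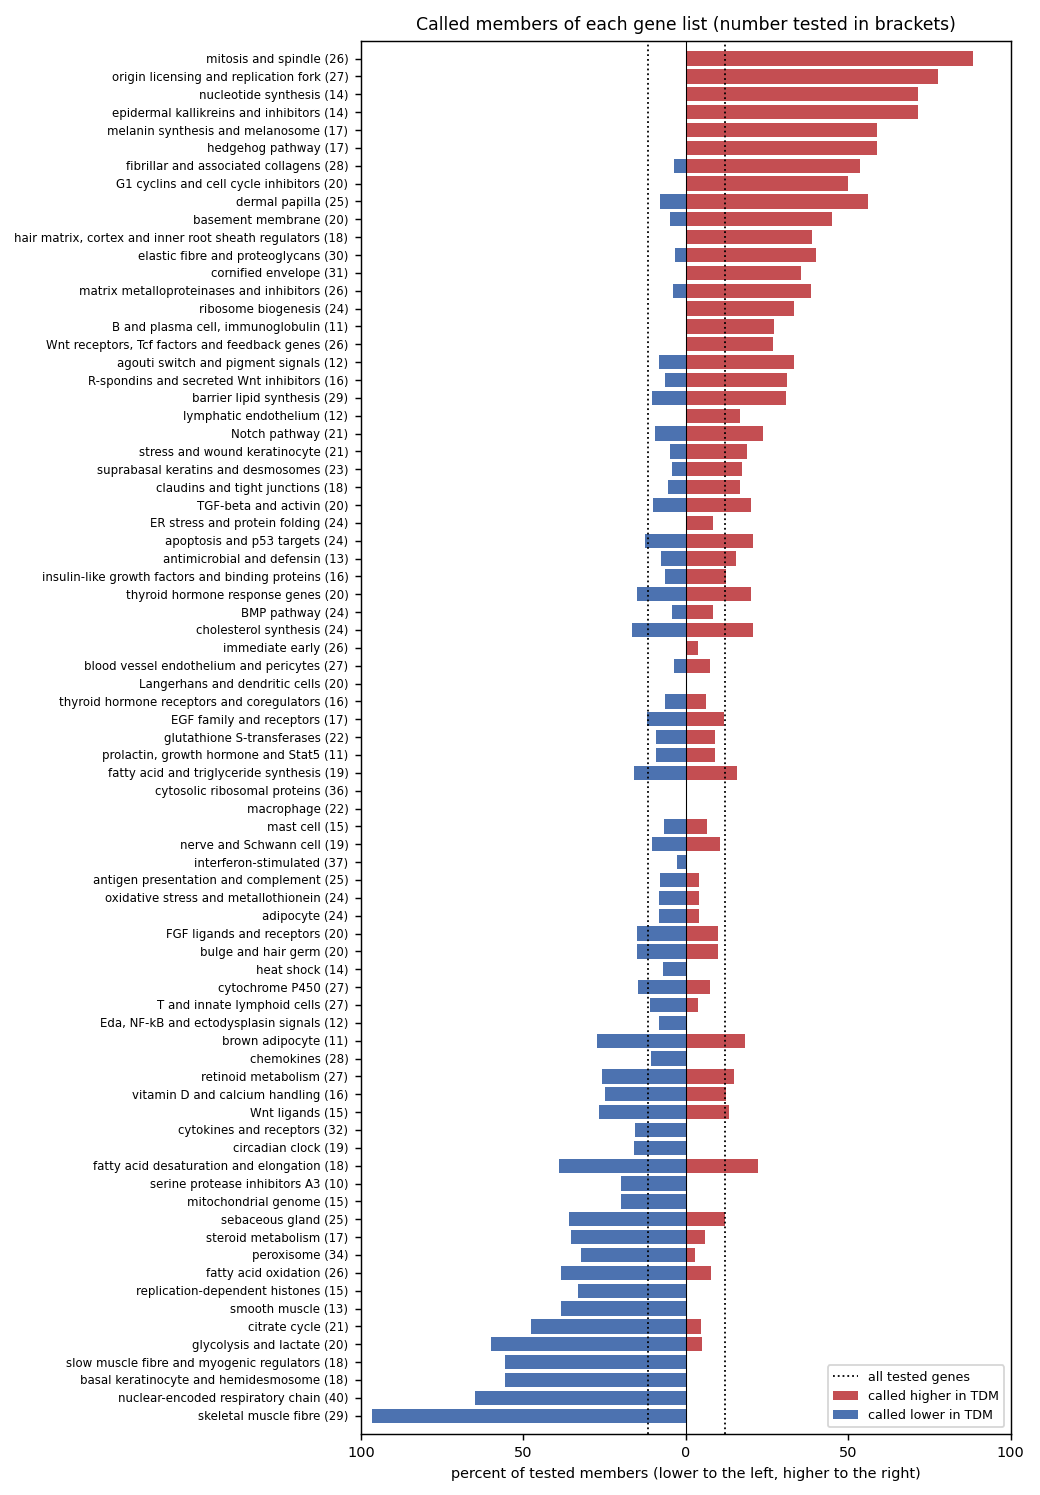
Percent of the tested members of each list with at least 10 of them, the number tested in brackets, called lower (blue, to the left) or higher (red, to the right) in TDM; dotted lines mark 12% higher and 11.7% lower, the shares over all tested genes. Mitosis, replication and kallikrein lists extend to the right, muscle, respiratory chain and basal keratinocyte lists to the left, and macrophage, Langerhans and ribosomal protein lists show no bar.

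Most immune lists were called at or below the shares over all tested genes, which were 12% higher and 11.7% lower. None of 22 macrophage and none of 20 Langerhans and dendritic cell genes was called, and 1 of 37 interferon-stimulated genes fell (2.7%) and none rose. Of 28 chemokines 3 fell (10.7%, near the share over all tested genes), and of 32 cytokines and receptors 5 fell (15.6%, above it). No gene of either list rose. The chemokine count was 5 without Vehicle replicate 7 or 8 and 1 without TDM replicate 4 or 9 or Vehicle replicate 2, it was 7 without both Vehicle replicates 7 and 8, and up to 3 cytokine genes were called higher with 1 library left out. Cd163, a scavenger receptor of macrophages, had medians of 143 and 238 CPM and did not pass (0.85, adjusted p = 0.0842), and up to 5 macrophage genes were called higher with 1 library left out. Oas1b, an antiviral enzyme, was the interferon-stimulated gene that fell (-0.73, adjusted p = 0.0117). Il33, an alarm cytokine of epithelium, lay between 19.8 and 34.8 CPM in Vehicle (median 25.8) and between 11.1 and 20.9 CPM in TDM (median 16.2), a change of -0.70 ± 0.13 (adjusted p = 0.000928), and stayed called with the muscle covariate. Ccl25, a chemokine, fell without overlap (-0.46 ± 0.11, adjusted p = 0.00636). Of 27 T and innate lymphoid cell genes, 3 fell (11.1%, near the 11.7% over all tested genes) and 1 rose (3.7%). The falling count was 5 without Vehicle replicate 7 and 6 without Vehicle replicate 8. Those that fell included Cd3g, a part of the T cell receptor complex (-0.65 ± 0.19, adjusted p = 0.0163). Camp, an antimicrobial peptide of neutrophils and keratinocytes, rose by 2.47 ± 0.50 (adjusted p = 0.00196), at 0 to 0.661 CPM in Vehicle and 0.637 to 6.07 CPM in TDM.

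Intestine genes were tested as markers of tissue other than skin, and 5 of 7 fell. Muc2, a mucin of goblet cells, had medians of 2.0 and 0.463 CPM with 37.0 CPM in Vehicle replicate 3 (-3.82, adjusted p = 0.00502; -2.98 without that library). Dmbt1 had medians of 0.510 and 0.122 CPM, reached 54.4 CPM in the same library, and lost its call without it (-4.74, adjusted p = 0.00604; -2.36, adjusted p = 0.0601). Lgals4 (-1.19, adjusted p = 0.0062) and Guca2a (-1.14, adjusted p = 0.00628) kept their calls in every fit with 1 library left out. Of 19 circadian clock genes, 3 fell (15.8%, against 11.7% over all tested genes) and none rose, and 5 fell without TDM replicate 7. Those that fell included Rora (-0.43, adjusted p = 0.00931) and Nfil3 (-0.46, adjusted p = 0.0108).

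Long non-coding RNA genes fell more often than they rose. Of 1210 tested, 205 fell (16.9%) and 35 rose (2.89%), with a median of -0.25, against 1723 and 1959 of 14826 protein-coding genes with a median of 0.03. They were low, with a median level of 1.37 CPM against 27 CPM. Among genes with a mean of 1 to 10 CPM, 134 of 675 long non-coding genes fell and 15 rose, against 318 and 363 of 3325 protein-coding genes. The clone-named gene C130079G13Rik, annotated as protein coding and named here after its values were seen, lay between 56.6 and 146 CPM in Vehicle (median 92.3) and between 4.05 and 12.0 CPM in TDM (median 9.15). Its groups did not overlap, and its fall of 3.5 on the log2 scale (SE 0.24) had an adjusted p of 3.23e-10 in edgeR's test.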

How the data were processed

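RNA of dorsal skin was sequenced in 27 libraries, 9 each of Blank, Vehicle and TDM. The authors deposited 1 table with raw read counts and FPKM values per gene; only the counts were tested, and the authors' deposited FPKM values were not used for any result. Bowtie 0.12.2 and mm9 are named per the submitters' processing notes, but 98.33% of 54409 genes found in GENCODE M21 have its coordinates, so positions are GRCm38. The sources used here do not state whether strand was used in counting, so antisense and overlapping genes are uncertain.

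Genes were kept by edgeR 4.0.16 filterByExpr (minimum count 10, minimum total 15), scaled by TMM and fitted over all 27 libraries with the robust quasi-likelihood test in R 4.3.3 (limma 3.58.1), TDM minus Vehicle, with Benjamini-Hochberg adjustment. Tested genes held 99.86% of reads. SE is the log2 fold change divided by the root of F. Alternatives included DESeq2 1.42.0, other scaling and filters, a replicate block, a muscle covariate and left-out libraries. The fit was checked on simulated data. Figures used matplotlib 3.10.9.

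Named genes are the 10 largest and 10 smallest changes without overlap at a mean of at least 1 CPM (clone names left out), up to 4 called members of each of 85 lists by p, and genes of thyroid hormone action and skin named whatever their values; others are marked. Members and lists were chosen with earlier results of these data known. Some genes that this rule names are not reported here.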

Additional observations from a re-analysis of the deposited data

Results flagged for a closer look

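Some libraries stood far from the other 8 of their group in genes named above, by Dixon's ratio on the log2 scale. Chance flags about 1 in 20 groups, and 16 of 372 were flagged. In Vehicle replicate 7, Klk10 was at 13.3 CPM (others 4.98 to 8.10), Dio2 at 4.95 (1.36 to 2.63), Krt25 at 6.14 (0 to 0.227), Krt73 at 17.5 (0 to 0.335), Wnt5b at 12.8 (5.84 to 8.23), Fbn2 at 19.3 (1.83 to 4.58), Agpat2 at 216 (55.8 to 107) and Pgam1 at 113 CPM (58.9 to 80.9), all high. In the same library Sdr16c5 was low at 10 CPM (19.9 to 37.7), as was Klk1b22 at 8.96 CPM (20.2 to 44.6). In Vehicle replicate 8, Kng2 was at 0 CPM (0.269 to 0.792) and Lef1 at 45.6 CPM (7.29 to 17.0). Ltbp1 was at 46.7 CPM in Vehicle replicate 3 (65.9 to 87.2), and Hist2h3c2 at 5.16 CPM in Vehicle replicate 1 (3.10 to 3.84). In TDM, E2f1 was at 40.0 CPM in replicate 8 (25.4 to 31.1) and Smo at 182 CPM in replicate 1 (126 to 144).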

How the results depend on the processing

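With the skeletal muscle covariate 232 genes were called (123 higher, 109 lower), and with a minimum change of 2-fold 649 (347 higher, 302 lower). Leaving out 1 library gave 3074 to 5537 called genes, 1361 (without Vehicle replicate 1) to 2881 higher and 1500 to 2656 lower. Groups did not overlap in 707 genes with TDM higher and 222 lower without Vehicle replicates 7 and 8, counts that leaving libraries out can only raise. The other settings kept the counts within 1.5 times: DESeq2 called 4727 genes and the fit of the 18 libraries alone 3335. With the replicate block 3946 were called; 3 of 9 same-numbered pairs correlated over 0.1 and 1 of 9 TDM libraries correlated best with its own number, so the numbers were not taken to pair libraries. Signs turned in genes that did not pass or lost their call. With the covariate the log2 changes were 0.0317 for Thra, 0.0332 for Frzb, -0.47 for Lor, -0.51 for Krt10, 0.0338 for Jag1 and -0.42 for Cyp26b1. Rxra was at 0.0338 without Vehicle replicates 7 and 8 (-0.0551 to 0.019 with 1 library left out), Ncor1 at -0.00495 without Vehicle replicates 3, 7 and 8, and Hr at -0.0205 there (-0.00517 to 0.11 with 1 left out). Klf9 was at -0.0109 with RLE scaling, -0.011 without a filter, -0.00106 with a filter at 1 CPM, -0.00711 with DESeq2, -0.00844 with the replicate block, -0.0377 without Vehicle replicates 7 and 8, -0.11 without Vehicle replicates 3, 7 and 8, and -0.10 to 0.0484 with 1 left out. The causes were not tested. Genes under about 1 CPM rest on few reads.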
